A study of Nicotiana attenuata with 6 samples.

Results

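The probes described here report 8 nuclear-encoded proteins of the chloroplast in Nicotiana attenuata, a wild tobacco whose flowers move. The proteins are of the light-harvesting antenna, photosystem I, the NDH complex, Rubisco, its activase and carbonic anhydrase. The probes were chosen by name: each carries the protein entry CB23_TOBAC, CB23_SOLLC, PSAEA_NICSY, PSAEB_NICSY, NDHM_VITVI, RBS2_NICSY, RCA_SOLPN or CAHC_TOBAC. The rule itself uses names alone, but the members were chosen with earlier results of these data known. Each name had 1 probe, present as 1 spot per array, so the set held 8 of the 59157 probes on the array. All 8 were among the 28672 probes that were well above background on every array of at least 1 group, which are called measured here. Entry names come from a match to a protein of a related plant (tobacco, Nicotiana sylvestris, wild or cultivated tomato, or grape), so a probe's name gives the protein family and not a gene of N. attenuata.

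Peduncles, the stalks on which the flowers move, were pooled at ZT0, when the light period starts, on the day the flowers began to move. The plants carried either an empty vector (EV) or an RNA interference construct against ZEITLUPE (irZTL, given as a single line), and both groups grew in a glasshouse with 16 h of light and 8 h of dark a day. For each group there were 3 arrays of Cy3-labelled RNA, and nothing in the labels says whether the pools came from separate sets of plants. The p-values thus reflect the spread between arrays, which holds pools, hybridizations and slides together, and not a known spread between plants. The ZTL transcript itself was not analysed here.

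Chlorophyll a/b-binding proteins form the antenna that gathers light and passes its energy to the photosystems. Photosystem I then reduces ferredoxin, docked with the help of its subunit PsaE, and the chloroplast NDH complex returns electrons from ferredoxin to the membrane. Rubisco fixes carbon dioxide, its activase frees it of bound sugar phosphates, and carbonic anhydrase interconverts carbon dioxide and bicarbonate in the stroma. In Arabidopsis, transcripts of antenna proteins and of Rubisco activase are known to follow the circadian clock, and ZTL is an F-box photoreceptor that targets clock proteins for degradation.

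The 6 arrays were alike in depth. Between 29211 and 30159 probes were well above background, and the 75th percentile of the processed signal, to which each array was scaled, ran from 239 to 327. The array quality weights of limma, used in an alternative setting, ran from 0.52 for irZTL replicate 3 to 1.90 for irZTL replicate 1. By the scan identifiers, slide 1 carried 2 irZTL arrays, replicates 1 and 2, and slide 2 carried the third irZTL array and the whole EV group, so slide and group are partly confounded. In total, 503 measured probes passed the threshold in limma (adjusted p under 0.05 and a change above 2-fold), 258 higher and 245 lower in irZTL.

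In irZTL the antenna probe CB23_TOBAC and the activase probe RCA_SOLPN fell, and no member rose past the threshold. The second antenna probe, CB23_SOLLC, was lower in every irZTL array than in any EV array but did not pass. Tested singly over the arrays, each of these 3 probes had an exact permutation p of 0.1, two-sided, the smallest that 3 arrays against 3 can give. The remaining 5 members, for photosystem I, the NDH complex, the Rubisco small subunit and carbonic anhydrase, differed by -0.05 to 0.35 log2 with overlapping groups. Thus 2 of 8 members passed, both lower, where 1.75% of all measured probes passed in either direction with 0.854% lower and 0.9% higher. Groups did not overlap for 3 of 8 members, all 3 lower in irZTL, where 25.2% of all measured probes did not overlap and 13.2% did so with irZTL lower. The members' median difference was -0.05 log2, and that of all measured probes was -0.01. In pooled tissue, fewer cells that express a gene and less of its RNA per cell cannot be told apart. All pools were taken at ZT0, so whether these differences hold at other times of day was not tested.

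CB23_TOBAC (probe NA5695_21609) was matched to a tobacco chlorophyll a/b-binding protein. Its processed signal, an intensity on a linear scale before scaling between arrays, was 6157, 10075 and 8437 on the EV arrays and 1357, 1359 and 1869 on the irZTL arrays. The scaled log2 values were 4.67, 4.95 and 5.14 in EV and 2.34, 2.15 and 2.90 in irZTL. Every irZTL array lay at least 1.77 log2 below the lowest EV array, and within irZTL the array on slide 2 was the highest. The group means were 4.92 ± 0.24 in EV and 2.46 ± 0.39 in irZTL (SD, n = 3 arrays each). CB23_TOBAC fell by 2.46 ± 0.22 log2 (SE), 5.49-fold, with a 95% interval of 3.83-fold to 7.88-fold and a limma adjusted p of 0.00494. Only 43 of the measured probes had a larger fall.

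CB23_SOLLC (probe NA37678_21608) was matched to a tomato chlorophyll a/b-binding protein. It gave processed signals of 3855, 7320 and 6718 in EV, and of 1433, 1440 and 2909 in irZTL. In scaled log2 units these were 3.99, 4.49 and 4.81 in EV against 2.42, 2.24 and 3.53 in irZTL. The 2 irZTL arrays of slide 1 lay close together and far below EV, while irZTL replicate 3 lay 0.46 log2 below the lowest EV array. Means were 4.43 ± 0.41 in EV and 2.73 ± 0.70 in irZTL (SD, n = 3 each). This SD in irZTL compares with a median SD between replicates of 0.16 over all measured probes. The difference was -1.70 ± 0.37 log2 (SE), with a 95% interval of -2.60 to -0.81 and a limma adjusted p of 0.0609. With the replicate number as a block, which pairs the arrays by number, its limma adjusted p was 0.0245, a call. That pairing was taken from these same data and not from the labels, so the call is not separate support. Without irZTL replicate 3 its difference was -2.10 (adjusted p = 0.0155, limma), and with that array as the only irZTL sample, on slide 2 alone, it was -0.90 (adjusted p = 0.411).

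Both antenna probes thus had their highest irZTL value on slide 2, by different amounts. From the EV mean, CB23_TOBAC differed by -2.67 log2 on the slide 1 arrays and -2.02 on slide 2, and CB23_SOLLC by -2.10 and -0.90. The part of slide in this was not tested, since slide 1 held no EV array. Per array, the log2 value of CB23_TOBAC minus that of CB23_SOLLC was -0.27 ± 0.32 in irZTL and 0.49 ± 0.18 in EV (SD, n = 3 each), with groups that did not overlap. The difference between these means was -0.76 ± 0.21 log2 (exact permutation p = 0.1, two-sided). This is the smallest p possible with these arrays, so the contrast could not pass. Antenna proteins are encoded by families of similar genes, and with no probe sequence in the files the share of signal that each probe takes from related copies was not tested.

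RCA_SOLPN (probe NA3211_22426) was matched to Rubisco activase of the wild tomato Solanum pennellii. Processed signals were 6799, 11544 and 8822 in EV, and 3592, 3987 and 3234 in irZTL. After scaling, the EV arrays read 4.81, 5.14 and 5.21 log2 and the irZTL arrays 3.74, 3.71 and 3.69. The irZTL values were nearly equal on both slides, and the highest of them lay 1.07 log2 below the lowest EV value. The mean fell from 5.05 ± 0.21 in EV to 3.71 ± 0.03 in irZTL (SD, n = 3 each). RCA_SOLPN fell by 1.34 ± 0.12 log2 (SE), 2.54-fold with a 95% interval of 2.06-fold to 3.12-fold, at a limma adjusted p of 0.00539. From the EV mean, RCA_SOLPN differed by -1.33 log2 on the slide 1 irZTL arrays and by -1.37 on that of slide 2. All EV arrays lay on slide 2, so the first value compares across slides. On slide 2 alone, with 1 irZTL array, neither RCA_SOLPN (adjusted p = 0.105) nor CB23_TOBAC (adjusted p = 0.0622) passed in limma. That fit has no spread of its own for irZTL and assumes that its lone array varies like the EV arrays. With slide as a fixed block, the differences were the same, because slide 1 held no EV array and the contrast again rests on the lone irZTL array. The slide 1 arrays then add only to the estimate of spread. Both probes passed in that fit (adjusted p = 0.0495 for RCA_SOLPN and 0.0298 for CB23_TOBAC, limma), which is not a result separate from slide 2 alone.

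Relative to the EV mean of each probe, RCA_SOLPN stayed between -1.31 and -1.37 log2 on the 3 irZTL arrays, and CAHC_TOBAC stayed between -0.15 and 0.08 on all 6 arrays.

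On the EV arrays all 3 were lowest on replicate 1, at -0.25 log2 from the group mean for CB23_TOBAC, -0.44 for CB23_SOLLC and -0.24 for RCA_SOLPN. Replicate 3 was the highest EV array for each, at 0.22, 0.38 and 0.15. Within irZTL, both antenna probes were highest on replicate 3, which deviated from the group mean by 0.43 for CB23_TOBAC and 0.80 for CB23_SOLLC, and by -0.03 for RCA_SOLPN. The arrays fall into 2 groups and 2 slides, so these patterns are given as a description with no p. Relative to RCA_SOLPN, CB23_TOBAC differed by -1.11 ± 0.24 log2 over all arrays and by -0.66 on slide 2 alone. The first had an exact permutation p of 0.1, two-sided, the smallest possible, so it could not pass.

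As a measure of likeness, the root mean square distance between 2 probes was taken over the 6 arrays after centring each on its own mean, which reflects size as well as shape. Among probes with a readable protein name, the nearest to CB23_TOBAC was CB23_SOLLC, at 0.43 log2, and the next was RCA_SOLPN, at 0.61. Among all measured probes, 41 and 138 lay closer than these, all of them without a readable name except CB23_SOLLC. The nearest named probe to CB23_SOLLC was HSP71_SOLLC, a chaperone of the HSP70 class, at 0.40. That probe was high on the same irZTL array, with scaled log2 values of 2.78, 2.87 and 3.99 in irZTL and 3.51, 4.26 and 5.09 in EV. Its own difference was -1.07 ± 0.47 (SE, limma adjusted p = 0.272). For RCA_SOLPN the nearest was SBP2_ANTMA, a squamosa promoter-binding protein, at 0.31, with 238 measured probes closer. The 5 members whose groups overlapped lay within 0.36 of each other, and PSAEA_NICSY and CAHC_TOBAC, at 0.065, were the closest pair among all members.

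Photosystem I was represented by both nuclear PsaE entries of N. sylvestris. PSAEA_NICSY (probe NA50988_22262) read 2.79, 2.96 and 2.87 log2 in EV and 2.81, 2.87 and 2.86 in irZTL. PSAEB_NICSY (probe NA31053_22263) read 5.25, 5.30 and 5.15 in EV and 5.27, 5.36 and 5.30 in irZTL. Values of both probes overlapped between the groups. The differences were -0.02 ± 0.09 (SE; 95% interval -0.23 to 0.19) for PSAEA_NICSY and 0.07 ± 0.09 (-0.14 to 0.29) for PSAEB_NICSY. The far ends of these intervals correspond to 1.18-fold lower for PSAEA_NICSY and 1.22-fold higher for PSAEB_NICSY. The sign of the PSAEA_NICSY difference was not settled, since it turned positive with quantile normalization. Relative to PSAEB_NICSY, PSAEA_NICSY differed by -0.09 ± 0.06 log2, with groups that overlapped (exact permutation p = 0.3, two-sided).

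NDHM_VITVI (probe NA167817_22006), for a nuclear subunit of the NDH complex, was the dimmest member. Its median spot signal was 2.15 to 2.67 times the local background. Scaled log2 values were -3.35, -3.81 and -3.55 in EV and -2.90, -3.57 and -3.17 in irZTL, with overlapping groups and the highest value on irZTL replicate 1. Its difference was 0.35 ± 0.20 (SE; 95% interval -0.13 to 0.83, limma adjusted p = 0.392), and 0.10 with the normexp background correction. Without irZTL replicate 1 it was 0.19, without EV replicate 2 it was 0.23, and without irZTL replicate 2 it was 0.53. In each same-numbered pair the irZTL array was the higher, and with the replicate block the adjusted p was 0.0815, not a call.

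CAHC_TOBAC (probe NA2418_21593), for the chloroplast carbonic anhydrase, was bright and steady. Its processed signal was 23997, 35296 and 23664 in EV and 26370, 32421 and 23077 in irZTL. Scaling brought these to 6.63, 6.76 and 6.63 log2 in EV and 6.62, 6.73 and 6.52 in irZTL, so the groups overlapped. The difference of -0.05 ± 0.10 had a 95% interval of -0.28 to 0.18. Its sign turned without irZTL replicate 3, where it was 0.0014. Set against carbonic anhydrase within each array, RCA_SOLPN differed by -1.29 ± 0.13 log2 and CB23_TOBAC by -2.41 ± 0.31. Each had an exact permutation p of 0.1, two-sided, the smallest possible, so neither could pass.

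RBS2_NICSY (probe NA118497_22420), for the small subunit of Rubisco, was among the 8 brightest of all 59157 probes on every array. Its processed signal was 310313, 329178 and 300583 in EV and 313041, 317599 and 301693 in irZTL. The highest array thus exceeded the lowest by only 1.10-fold, while CAHC_TOBAC spanned 1.53-fold and the 75th percentile 1.37-fold. No spot on any array was marked as saturated. The 20 brightest measured probes nevertheless spanned a median of 1.12-fold over the 6 arrays before scaling, against 1.51-fold for the next 80 and 1.57-fold for the 900 after those. The brightest probe of each array read between 376433 and 398904.

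After scaling, RBS2_NICSY read 10.33, 9.98 and 10.30 log2 in EV and 10.19, 10.02 and 10.23 in irZTL. It was lowest on EV replicate 2 and irZTL replicate 2, the arrays with the highest 75th percentiles. The difference was -0.05 ± 0.13 (SE; 95% interval -0.36 to 0.25), and -0.01 with no scaling between arrays. Its sign is not settled, being 0.03 on slide 2 alone. Given the narrow span of the brightest probes, this interval describes the signal of the spot, and whether a change in small subunit RNA would register at this brightness was not tested. Comparisons of RCA_SOLPN or the antenna probes with RBS2_NICSY share this limit. Relative to it the differences were -1.29 ± 0.21 for RCA_SOLPN, -2.40 ± 0.26 for CB23_TOBAC and -1.65 ± 0.46 for CB23_SOLLC, the last being -0.93 on slide 2 alone.

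Before scaling, the highest array's processed signal over the lowest was 7.43-fold for CB23_TOBAC, 5.11-fold for CB23_SOLLC and 3.57-fold for RCA_SOLPN. These lay above the 10th to 90th percentile of measured probes of like brightness.

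Pairs of members were compared in 10 such within-array contrasts, fixed with earlier results of these data known. In 9 of 10 the groups did not overlap. Each of these had an exact permutation p of 0.1 and a Benjamini-Hochberg adjusted p of 0.111, so none could pass at this sample size. All of them but NDHM_VITVI against RBS2_NICSY held CB23_TOBAC, CB23_SOLLC or RCA_SOLPN, whose groups did not overlap singly. The 9 are thus not separate results, and the share over pairs of other probes was not computed. NDHM_VITVI against RBS2_NICSY differed by 0.41 ± 0.16 log2 and rests on the dimmest and the brightest member. It was 0.11 with the normexp background correction, 0.27 without irZTL replicate 1, and had an exact permutation p of 0.2 with quantile normalization.

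Brightness ranks of the members moved accordingly, counted from the brightest of all probes on an array. CB23_TOBAC ranked 906 to 1290 in EV and 4410 to 6741 in irZTL. CB23_SOLLC ranked 1180 to 2123 in EV and 2892 to 6483 in irZTL, and RCA_SOLPN 860 to 1138 and 2538 to 2626. The other members kept narrow ranges over all 6 arrays, of 224 to 275 for CAHC_TOBAC, 719 to 901 for PSAEB_NICSY and 4461 to 4763 for PSAEA_NICSY. NDHM_VITVI ranked 25433 to 28422, near the middle of the array. A probe's brightness also depends on its sequence, so these ranks describe signals and do not order the transcripts by abundance.

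Of 25 further probes named for photosynthesis proteins, 16 were measured and 0 passed the threshold in limma in either direction, where 1.75% of all measured probes passed. Unlike the members, 14 of these 16 are entries of the plastid genome. Their differences ran from -0.18 to 0.45 log2 with a median of 0.03, and 1 of 16 had an unadjusted p under 0.05. That probe was ATPE_PELHO, the epsilon subunit of the chloroplast ATP synthase, at 0.29 ± 0.11 (adjusted p = 0.200). The largest difference was that of ATPF_POPAL, another subunit of that synthase, at 0.45 ± 0.21. RBL_VITSX, for the Rubisco large subunit that the plastid genome encodes, differed by 0.04 ± 0.24, with means of 7.46 ± 0.43 in EV and 7.50 ± 0.27 in irZTL (SD, n = 3 each). The 1 measured plastid probe of the NDH complex, NU4LC_PELHO, differed by 0.12 ± 0.09, while 6 other probes of that complex were not measured. TKTC_SOLTU, a chloroplast transketolase of the Calvin cycle, and FENR2_TOBAC, a ferredoxin-NADP reductase, are nuclear-encoded like the members. They differed by 0.06 ± 0.14 and 0.14 ± 0.22. The lists were matched by entry name alone, and whether this reductase is a form that works in photosynthesis was not tested. No probe of the lists for chlorophyll synthesis, or for antenna proteins beyond the members, matched by name.

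The middle 90% of all measured probes had log2 differences from -0.60 to 0.55. CB23_TOBAC, CB23_SOLLC and RCA_SOLPN lay below this range, and all 16 other measured photosynthesis probes lay within it.

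A further 4 chloroplast probes were added to these lists after the probe names had been seen. PLAS1_TOBAC, for plastocyanin, which carries electrons to photosystem I, differed by -0.24 ± 0.23, and GSA_TOBAC, an early enzyme of chlorophyll synthesis, by -0.04 ± 0.12. MGDG_TOBAC, which makes a lipid of the chloroplast membranes, differed by -0.31 ± 0.10, with groups that did not overlap (limma adjusted p = 0.143). FTSH_TOBAC, a chloroplast protease, differed by 0.04 ± 0.10.

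Markers of other tissues were few. Both pollen and anther markers found by name were measured, and POLC2_TOBAC differed by -0.60 ± 0.12 log2 (limma adjusted p = 0.0460, below 2-fold), while LAT52_SOLLC differed by -0.96 ± 1.19. Their summed level relative to the 75th percentile was 0.31 to 0.92 in irZTL and 0.53 to 0.98 in EV, ranges that overlapped, and their part in the lower antenna and activase signal was not tested. All 3 markers of lignified stem were measured, with a summed level of 37.3 to 55.4 in irZTL and 35.5 to 47.6 in EV and no call. The only lipid transfer marker was not measured, and no petal or pigment marker matched by name.

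Over the 18 alternative settings, the log2 difference stayed between -2.67 and -2.02 for CB23_TOBAC and between -1.46 and -1.27 for RCA_SOLPN. That of CB23_SOLLC ran from -2.10 to -0.90.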

How the data were processed

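Arrays of the one-colour Agilent type were hybridized with Cy3-labelled RNA, per the labels' protocols, and the authors extracted spots with Agilent Feature Extraction, version 10.7.3.1 per the file headers and 9.5 per the submitters' processing notes. Per the file headers, the deposited files give each spot a processed intensity, linear, background-subtracted and not scaled between arrays, beside median spot and background intensities and other flags of the software. Log2 values in the authors' deposited table were, by the design text, scaled to the 75th percentile. Its columns lay within 0.02 of the values computed here for 99.89% to 99.92% of probes on an array.

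Control and outlier spots were dropped and repeated spots averaged. From log2 of the processed intensity the 75th percentile of its array was subtracted, and groups were compared with limma 3.58.1 in R 4.3.3 (two-sided, Benjamini-Hochberg over 28672 measured probes). A call needs an adjusted p under 0.05 and over 2-fold. The filter, the scaling and the thresholds are those of the design text. This fit was tested on simulated data with independent noise and no slide effect, so that test does not cover the slide layout of these arrays. Single values and contrasts between members used an exact permutation test. All 8 members and their direct partners are named, with up to 4 probes per list. Members, lists and contrasts were chosen with earlier results of these data known.

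Replicate numbers are shared between the groups. Same-numbered arrays deviated together from their group means over measured probes (r of 0.39, 0.14 and 0.37 for numbers 1, 2 and 3). Arrays of unlike number had r of -0.33 to 0.06. The labels do not say what a number marks, so the pairing is taken from these data. It enters the replicate block alone, which is given where it changes a call and for NDHM_VITVI. The main fit and the permutation tests left the arrays unpaired. The number of arrays limits the precision. Of 39977 genes in the reference table, 0 matched a probe identifier, so no gene position is given, and no sequence is printed.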

Additional observations from a re-analysis of the deposited data

How the results depend on the processing

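The results were recomputed under 18 alternatives, or 19 for counts, where no fold minimum was also tried. The setting with no scaling between arrays was chosen after the data were seen. CB23_TOBAC and RCA_SOLPN passed the threshold in 16 of 18. They did not on slide 2 alone (-2.02 and -1.37 log2, adjusted p of 0.0622 and 0.105) or with the methods' t-test (-2.46 and -1.34, adjusted p of 0.0697 and 0.0627), so 0 members passed under either. CB23_SOLLC passed with the replicate block (-1.70), normexp on the median signal (-1.68), array quality weights (-2.04) and no scaling (-1.66), and its difference ran from -2.10 to -1.46 when 1 array was left out, past the threshold only without irZTL replicate 3. Left-out arrays gave -0.062 to 0.023 for PSAEA_NICSY, -0.16 to 0.0097 for RBS2_NICSY, -0.10 to 0.0014 for CAHC_TOBAC and 0.19 to 0.53 for NDHM_VITVI. Signs also turned for PSAEA_NICSY with quantile normalization (0.00071) and no scaling (0.021), and for RBS2_NICSY with slide as a fixed block and on slide 2 alone (0.030 in each). The values whose sign turned lay within 1 SE of 0. All 100 values of the contrasts between members kept their direction.

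The whole array gave 503 calls, and separate fits with 1 array left out gave 242 to 718. Leaving out irZTL replicate 1 gave 304, irZTL replicate 2 gave 273, EV replicate 2 gave 242 and EV replicate 3 gave 316. Slide as a fixed block gave 207, and slide 2 alone 68. Counts were 77 with the methods' t-test, 260 without the filter on dim probes, 267 with normexp, 788 with array weights, 942 with no scaling and 1160 with no fold minimum. The replicate block gave 690 and changed no other member's call. What moved the counts was not tested. Slide 1 held no EV array, so no comparison within it could be made. Values within slide 2 rest on 1 irZTL array, as do the differences with slide as a fixed block. NDHM_VITVI lay close to background, and whether brightness limits RBS2_NICSY was not tested.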

Other observations

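Probes with repeated spots show the technical spread within an array, which the single-spot members cannot. Among 57 probes with 6 spots per array and a mean processed signal over 1000, the median SD between spots of the same array was 0.05 log2. This holds no spread between pools or hybridizations, so the spread of a member between arrays was not set against it. Of the 100 brightest measured probes, which include RBS2_NICSY, 1 passed the threshold in limma.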
